A study of Rattus norvegicus with 31 samples.

Results

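The intact side of the lesioned rats was compared with the striatum of rats that had no lesion, both groups being saline-treated. The comparison used 9 of the 31 striatal arrays of the study: 5 arrays of the intact striatum of 6-OHDA rats given saline (SNL) and 4 arrays of control rats given saline (SC). It covered all 9732 probes, of 22519 on the array, that were detected at a detection p under 0.01 on at least 4 of the 31 arrays. It addresses whether the side opposite a lesion, which serves as the within-animal reference in such rats, differs in its mRNA levels from a striatum that never had a lesioned partner.

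All rats were male Sprague-Dawley rats, an outbred strain. The SNL rats had received 6-OHDA (5 µl at 2 µg/µl) in the left medial forebrain bundle under chloral hydrate, so the SNL striatum is that of the right side. Their rotation was measured under apomorphine (day 24) and under METH, methamphetamine (day 31). Saline followed a week later, and the tissue was taken 2 h after it. The SC rats received saline 2 h before the tissue was taken and no 6-OHDA, and whether they had surgery or the earlier drug tests is not stated in the methods. A distant effect of the lesion, the surgery and the earlier apomorphine and METH therefore cannot be told apart here. A further 3 groups are set beside the main comparison: the striatum on the side of the lesion after saline (SL, 6 arrays), the intact side of 6-OHDA rats given METH at 2.5 mg/kg in place of the last saline (MNL, 6 arrays), and METH-treated controls (MC, 4 arrays). The labels number the striata but neither link them to rats nor give the hemisphere of a control striatum, and p-values measure the spread between these striata.

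The striatum is built mostly of GABAergic spiny projection neurons. Those of the direct pathway carry D1 dopamine receptors and make substance P and dynorphin, whereas those of the indirect pathway carry D2 receptors and make enkephalin. 6-OHDA is taken up by catecholamine neurons and destroys them, so that an injection into the medial forebrain bundle removes the dopamine input of the striatum on the same side. The nigrostriatal projection is largely uncrossed, and the opposite striatum keeps its own dopamine input. The cortex projects to both striata.

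The arrays held striatal RNA. Of 35 spiny neuron marker and signalling genes with a probe, 32 were detected on all 9 arrays. Ppp1r1b, which encodes the dopamine-regulated phosphatase inhibitor DARPP-32, averaged a log2 intensity of 12.86 ± 0.21 in SNL and 13.03 ± 0.21 in SC (SD, n = 5 and 4). Rgs9, a regulator of G-protein signalling typical of the striatum, averaged 13.15 ± 0.35 in SNL and 13.35 ± 0.08 in SC. Th and Slc6a3, which mark dopamine neurons whose cell bodies lie in the midbrain, were detected on 0 of the 9 arrays. The arrays therefore could not check the dopamine input itself. By HPLC the study reported that dopamine and its metabolites did not differ between the intact side and control rats. Per array, 8194 to 9130 probes were detected in SNL and 8269 to 9451 in SC. Precision is limited by having 5 and 4 arrays.

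Of the 31 arrays, 3 stood apart, and all 3 belong to the 2 groups compared here: SNL 19, SC 6 and SC 8a (numbers as in the labels). Their scores on the first principal component, which carried 20.51% of the variance, lay between -38.8 and -28.2, against -4.99 to 14.96 on the other 28 arrays. The median log2 intensity of ribosomal protein genes was 10.4 to 10.8 on the 3 arrays and 11.4 to 11.7 on the others. Their array weights in limma were 0.26 to 0.34, against 0.60 to 2.43. The median SD of a probe was 0.22 in SNL and 0.24 in SC, and 0.18 and 0.10 in SNL and SC without these arrays. Results are therefore given with and without them.

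**Figure D1:**
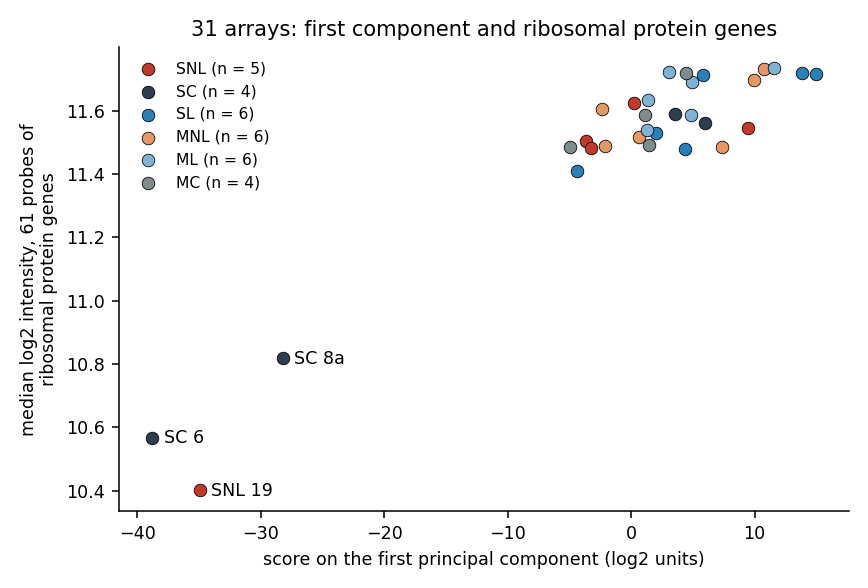
Each point is 1 array, with its score on the first principal component on the x axis and the median log2 intensity of 61 probes of ribosomal protein genes on the y axis, coloured by group. SNL 19, SC 6 and SC 8a lie at scores of -28.2 or below and at a ribosomal level of 10.8 or below, apart from the other 28 arrays.

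No probe differed between SNL and SC at an adjusted p under 0.05 (0 of 9732 probes, 0% called, limma with Benjamini-Hochberg adjustment). The smallest adjusted p was 0.185, that of Qdpr. At an unadjusted p under 0.05 there were 397 probes (4.08%), 203 higher (2.09%) and 194 lower (1.99%) in SNL. Without the 3 arrays that stood apart the test again called 0 probes, with 635 at an unadjusted p under 0.05 (6.52%). With limma's array weights, which count these arrays less, it called 0 probes, with 870 at an unadjusted p under 0.05 (8.94%).

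The intervals give the size of difference that the fit allowed. They rest on 1 spread pooled over all 6 groups and are given with all arrays only. The median SD of a probe was 0.22 in SNL and 0.24 in SC, against 0.165 to 0.2 in the other groups. The intervals may therefore be too narrow for SNL against SC. The median SE of a log2 fold change was 0.145, with a median half-width of the 95% interval of 0.295. For 8993 probes (92.41%) the whole interval lay within 1.7-fold in either direction, and for 9465 probes (97.26%) within 2-fold. The fold changes themselves ran from -0.26 at the 5th to 0.30 at the 95th percentile on the log2 scale, with a median of -0.002, and 49.4% of probes lay above 0. In 74 probes (0.76%) the 2 groups did not overlap, with all SNL arrays above all SC arrays in 35 (0.36%) and below them in 39 (0.401%).

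The root mean square difference in log2 intensity over the tested probes had a median of 0.43 between an SNL and an SC array (20 pairs), against 0.36 between 2 SNL arrays (10 pairs) and 0.47 between 2 SC arrays (6 pairs). The median SNL-to-SC distance thus lay between the 2 within-group medians. Most of the SC pairs held an array that stood apart, and the SC distances ran from 0.284 to 0.59. The distances are given with all arrays only, so whether this order holds without the 3 arrays was not tested. For scale, the lesioned side against the same controls gave 16 probes at an adjusted p under 0.05 (0.164%), 9 higher (0.0925%) and 7 lower (0.0719%) in SL, with 1712 at an unadjusted p under 0.05 (17.6%). Without the 3 arrays that count was 0, with 647 at an unadjusted p under 0.05 (6.65%), and with array weights it was 67, with 1528 (15.7%). The 2 comparisons share the SC arrays.

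**Figure D2:**
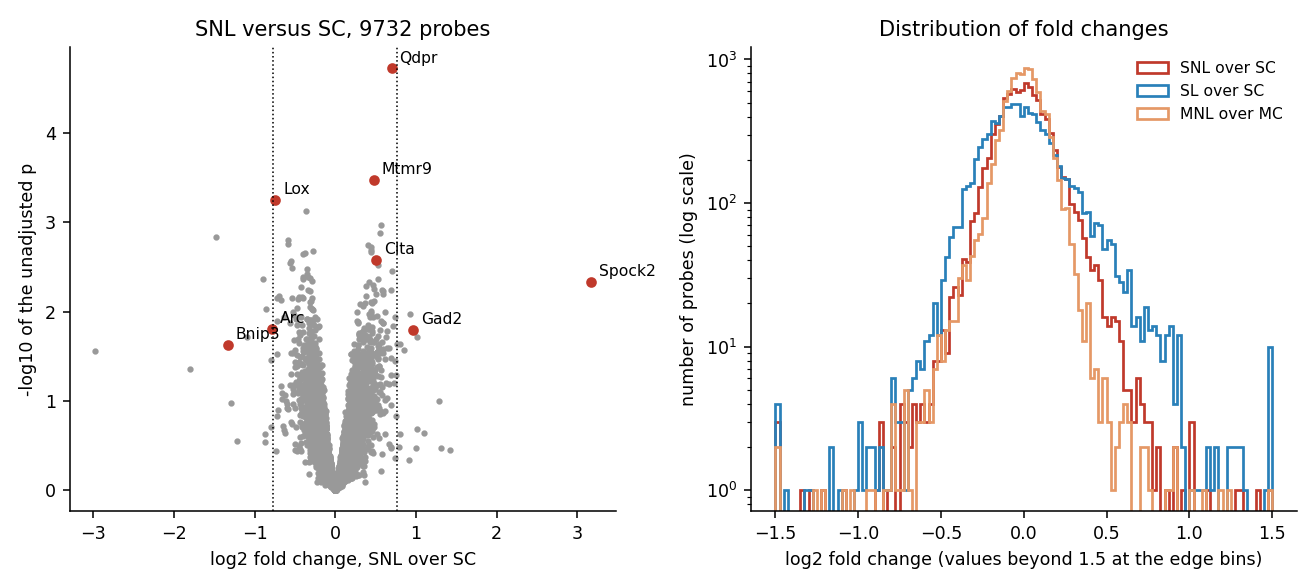
Left, each point is 1 of 9732 probes, with the log2 fold change of SNL over SC on the x axis, minus log10 of the unadjusted p on the y axis, and dotted lines at 1.7-fold. Right, the number of probes (log scale) by log2 fold change for SNL over SC, SL over SC and MNL over MC, where SL over SC is the widest and 5th to 95th percentiles of SNL over SC are -0.26 and 0.30.

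Qdpr encodes quinoid dihydropteridine reductase, which regenerates tetrahydrobiopterin, the cofactor of tyrosine hydroxylase and tryptophan hydroxylase. Its log2 intensity was 10.32, 11.00, 10.68, 10.93 and 10.76 on SNL arrays 3, 11, 19, 23 and 27, against 10.05, 10.19, 9.76 and 10.15 on SC arrays 6, 8a, 15 and 16. All 5 SNL arrays lay above all 4 SC arrays. The log2 fold change was 0.70 (SE 0.14, 95% interval 0.42 to 0.98, 1.63-fold), with an unadjusted p of 1.9e-05. It did not pass the adjustment over 9732 probes (adjusted p = 0.185). Of the alternatives run, leaving out SNL 3 was the one under which it passed, SNL 3 being the lowest SNL array (log2 fold change 0.81, adjusted p = 0.0162). Without the 3 arrays that stood apart it was 0.80 (adjusted p = 0.729), and with array weights 0.81 (adjusted p = 0.0589). On the lesioned side Qdpr lay between 10.38 and 10.72, and SL over SC gave 0.53 (adjusted p = 0.0939). In the METH-treated rats it averaged 10.50 ± 0.24 in MNL and 10.23 ± 0.12 in MC (SD, n = 6 and 4), a log2 fold change of 0.27 (SE 0.13).

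None of the other genes named by smallest p passed the adjustment either, each at an adjusted p of 0.987. Mtmr9, a catalytically inactive member of the myotubularin family, had 7.15, 7.22, 7.37, 7.40 and 7.33 on the SNL arrays, against 6.89, 6.39, 7.03 and 6.94 on the SC arrays. The groups did not overlap, but the log2 fold change of 0.48 (SE 0.12) came to 0.29 without the 3 arrays, SC 8a being the lowest array. Cdc42ep1, an effector of the small GTPase Cdc42, had 5.26, 5.73, 5.77, 6.09 and 5.67 on the SNL arrays, against 5.24, 5.04, 5.08 and 5.16 on the SC arrays. SNL 3 lay just above SC 6, so that the groups did not overlap. The log2 fold change was 0.57 (SE 0.16), and the probe was detected on 5 of 5 SNL and 2 of 4 SC arrays.

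Prpf19, a core factor of the spliceosome, gave a log2 fold change of 0.56 (SE 0.16) and Nob1, an endonuclease of ribosome maturation, 0.41 (SE 0.12), with overlapping groups. Tnpo2, a nuclear import receptor, gave 0.45 (SE 0.13), Mnt, a repressor that pairs with MAX, 0.44 (SE 0.13), Hm13, the signal peptide peptidase, 0.53 (SE 0.16), and Alkbh5, which removes methyl groups from adenosine in RNA, 0.41 (SE 0.14). In these 4 genes all SNL arrays lay above all SC arrays. Clta, a light chain of clathrin, completed the 10 positive genes at 0.51 (SE 0.15).

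Of the genes on the negative side, Lox led. It encodes lysyl oxidase, which cross-links collagen and elastin. It had 5.73, 5.93, 6.18, 5.09 and 5.42 on the SNL arrays, against 7.04, 6.36, 6.01 and 6.25 on the SC arrays. SNL 19, the highest SNL array, lay above SC 15. SNL over SC gave a log2 fold change of -0.74 (SE 0.19), and -0.58 without the 3 arrays.

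Zdhhc7, a palmitoyltransferase, had 6.73, 6.62, 6.76, 6.56 and 6.61 on the SNL arrays, against 6.90, 7.09, 6.82 and 6.91 on the SC arrays. Bdh1, the mitochondrial dehydrogenase of the ketone body 3-hydroxybutyrate, had 6.94, 7.07, 7.18, 6.82 and 7.01 on the SNL arrays, against 7.29, 7.51, 7.22 and 7.47 on the SC arrays. In both genes, and in Ucp2, a mitochondrial carrier, all SNL arrays lay below all SC arrays. Their log2 fold changes were -0.27 (SE 0.08), -0.37 (SE 0.11) and -0.40 (SE 0.12) in the order Zdhhc7, Bdh1 and Ucp2. Pagr1, a partner of histone methyltransferases, gave -0.58 (SE 0.17), Pnlip, pancreatic lipase, -0.56 (SE 0.17), and Zfp189, a zinc finger protein, -0.53 (SE 0.17). Tfpi, an inhibitor of the tissue factor pathway of clotting, gave -0.39 (SE 0.13), Pspc1, a paraspeckle protein, -0.36 (SE 0.11), and Pdgfrl -0.34 (SE 0.11), and in all 6 the groups overlapped.

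**Figure D3:**
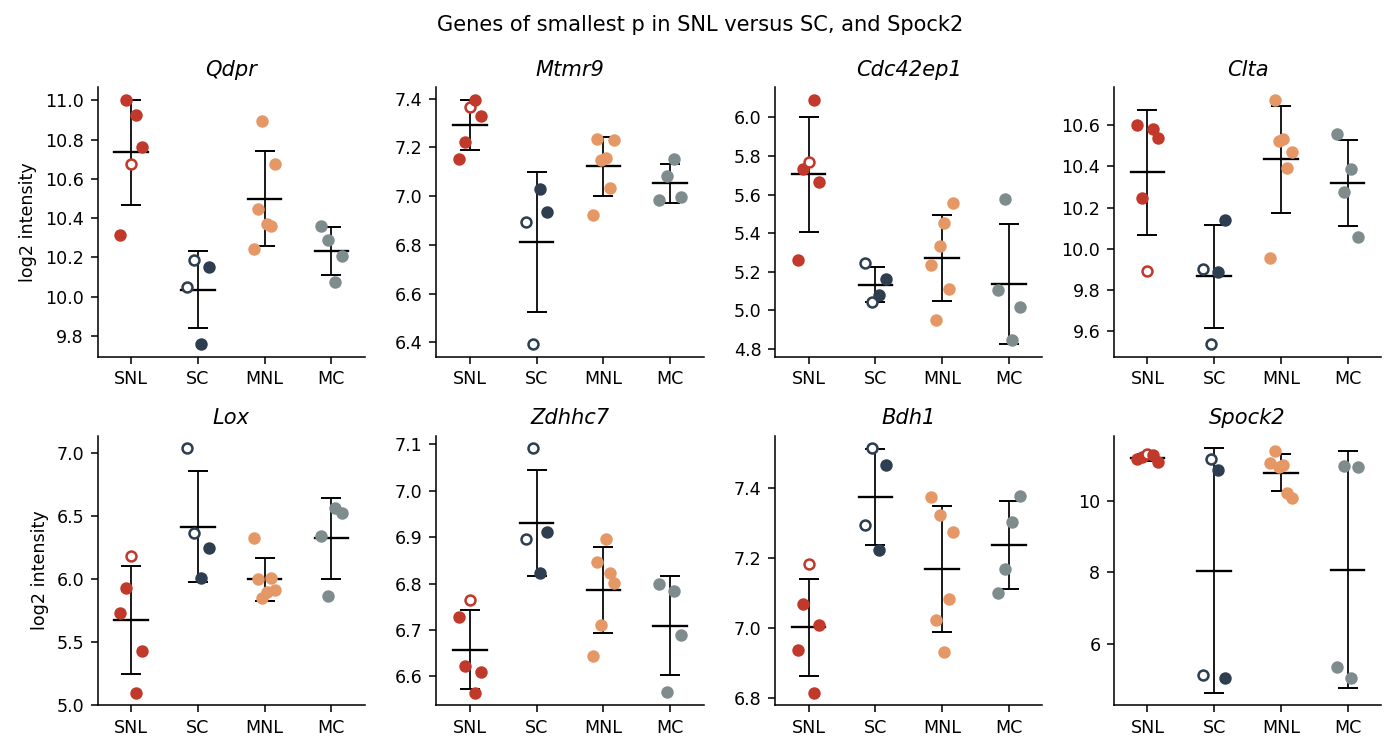
Log2 intensity (y axis) on each array for Qdpr, Mtmr9, Cdc42ep1, Clta, Lox, Zdhhc7, Bdh1 and Spock2 in SNL, SC, MNL and MC, with the mean and SD as bars and SNL 19, SC 6 and SC 8a as open circles. Qdpr lies between 10.32 and 11.00 in SNL and between 9.76 and 10.19 in SC, and Spock2 takes 2 separate levels in SC and in MC.

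At a threshold of 1.7-fold with an unadjusted p under 0.025, the limma fit gave 11 probes (0.113%), 5 higher (0.0514%) and 6 lower (0.0617%) in SNL. This count was 34 without the 3 arrays. It was 49 without SNL 19 alone, 17 without SC 6, 33 without SC 15 and 23 without SC 16. Of the 11 probes, 6 carry a gene symbol, and none of them passed the adjustment (adjusted p = 0.987).

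Spock2, a proteoglycan of the brain extracellular matrix, had the largest fold change of the 11 probes. Its log2 intensity was 11.17, 11.23, 11.33, 11.31 and 11.09 on the SNL arrays, against 5.12, 11.19, 10.86 and 5.02 on SC 6, 8a, 15 and 16. The probe was thus near 11 on all 5 SNL arrays and on 2 of 4 SC arrays, and near 5, where it was not detected, on the other 2. The same 2 levels appeared in 2 and 2 of the 4 MC arrays, whereas all 6 SL arrays, all 6 MNL arrays and the 6 arrays of the lesioned side after METH (ML) were on the upper level. The log2 fold change was 3.18 (SE 1.04) and rested on the 2 SC arrays at the lower level.

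Gad2, which encodes the GABA-synthesising enzyme GAD65, had 8.72, 8.81, 9.12, 7.93 and 8.76 on the SNL arrays, against 7.54, 7.35, 8.31 and 7.61 on the SC arrays. SNL 23 lay below SC 15, with a log2 fold change of 0.96 (SE 0.38), or 0.59 without the 3 arrays. RT1-Da, a class II histocompatibility gene, had 7.75, 8.17, 7.25, 6.81 and 7.48 on the SNL arrays, against 6.75, 6.47, 6.51 and 7.00 on the SC arrays. Its log2 fold change was 0.81 (SE 0.34), and SNL 23 lay within the SC range. In the METH-treated rats MNL over MC gave -0.32 for Gad2 and -0.12 for RT1-Da.

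Bnip3, a mitochondrial protein of the hypoxia response, had 10.19, 8.54, 8.76, 9.94 and 8.72 on the SNL arrays, against 11.21, 10.89, 10.02 and 10.12 on the SC arrays. Its log2 fold change was -1.33 (SE 0.56), and -0.72 without the 3 arrays. B4galt4, a galactosyltransferase, gave -0.86 (SE 0.31), with 3 of the 4 SC arrays between 8.11 and 8.24 and the fourth, SC 15, at 7.21, within the SNL range of 6.89 to 7.29. Arc, an activity-regulated cytoskeletal gene of excitatory synapses, is described with the immediate early genes. The 5 probes without a symbol gave log2 fold changes of -1.48, -1.10, -0.89, 0.92 and 1.01.

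Peptide genes were examined next, with other genes outside the transcription factors that the study named for the lesion or measured by qPCR. None of those tested passed between SNL and SC. Nmu, which encodes neuromedin U, lay between 7.98 and 9.34 on the 6 SL arrays. It was 6.42, 6.34, 5.94, 6.29 and 6.52 on the SNL arrays and 5.45, 5.96, 6.78 and 6.87 on the SC arrays. The SNL arrays lay inside the SC range. SNL over SC gave a log2 fold change of 0.04 (95% interval -0.63 to 0.70), beside 2.45 for SL over SC (adjusted p = 8.8e-05).

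Fst, which encodes the activin antagonist follistatin, lay between 7.26 and 8.86 on the SL arrays. It was 6.61, 6.31, 6.21, 6.77 and 6.76 on the SNL arrays and 6.58, 6.17, 6.46 and 6.89 on the SC arrays, with overlapping SNL and SC groups. SNL over SC gave 0.01 (95% interval -0.52 to 0.53), beside 1.61 for SL over SC (adjusted p = 0.00103). Nts, neurotensin, averaged 7.88 ± 0.44 in SNL and 7.78 ± 0.55 in SC (SD), a log2 fold change of 0.10 (95% interval -0.50 to 0.70), beside 1.58 for SL over SC (adjusted p = 0.0097). Tac3, which encodes neurokinin B, averaged 7.41 ± 0.55 in SNL and 7.20 ± 0.57 in SC, a log2 fold change of 0.21 (95% interval -0.30 to 0.72), beside 1.60 for SL over SC (adjusted p = 0.00099). The 2 comparisons share the SC arrays. In Nmu the 2 lowest SC arrays were SC 6 and SC 8a, and without the 3 arrays SNL over SC gave -0.43 for Nmu, -0.07 for Fst, -0.16 for Nts and -0.06 for Tac3.

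Tac1, which encodes substance P, had 11.73, 11.01, 11.55, 11.14 and 11.32 on the SNL arrays, against 11.17, 12.21, 11.79 and 11.88 on the SC arrays. SC 6 lay among the SNL arrays and the other 3 SC arrays lay above them. SNL over SC gave a log2 fold change of -0.42 (95% interval -0.96 to 0.13), beside -1.43 for SL over SC (adjusted p = 0.0097). Pdyn, prodynorphin, had 7.52, 7.22, 8.33, 7.89 and 8.03 on the SNL arrays, against 7.59, 8.34, 8.07 and 8.29 on the SC arrays, with overlapping groups. SNL over SC gave -0.27 (95% interval -0.70 to 0.16), beside -0.997 for SL over SC (adjusted p = 0.0242). Without the 3 arrays that stood apart SNL over SC gave -0.51 for Pdyn, and Tac1 also lay further below 0. Over the alternatives run, SNL over SC ran from -0.61 to -0.27 for Tac1 and from -0.51 to -0.13 for Pdyn. Penk, proenkephalin, averaged 12.53 ± 0.27 in SNL and 12.52 ± 0.15 in SC, a log2 fold change of 0.01 (95% interval -0.35 to 0.36), beside 0.55 for SL over SC (adjusted p = 0.122). Acvr1, an activin receptor, had 5.45, 5.48, 5.84, 5.33 and 5.71 on the SNL arrays, against 6.07, 5.89, 5.54 and 5.39 on the SC arrays, with overlapping groups. Its log2 fold change was -0.16 for SNL over SC (95% interval -0.56 to 0.23), and 0.03 without the 3 arrays, beside -0.19 for SL over SC (adjusted p = 0.632). By qPCR the study reported a significant rise of Acvr1 in SNL against SC, which these array values did not show. Ptgs2, the inducible cyclooxygenase, lay between 7.05 and 8.39 in SNL and between 8.08 and 8.26 in SC, so that the groups overlapped. Its log2 fold change was -0.36 for SNL over SC (95% interval -0.97 to 0.24), beside 0.42 for SL over SC (adjusted p = 0.46). Some of the genes that the study named were at or near background. Inhba, the activin subunit beta A, was detected on 2 of 5 SNL and 0 of 4 SC arrays, and Ldhc, Pdgfd, Syt10 and Synj2bp on none of the 9. No probe carried the symbol Stab2 in the annotation used here.

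**Figure D4:**
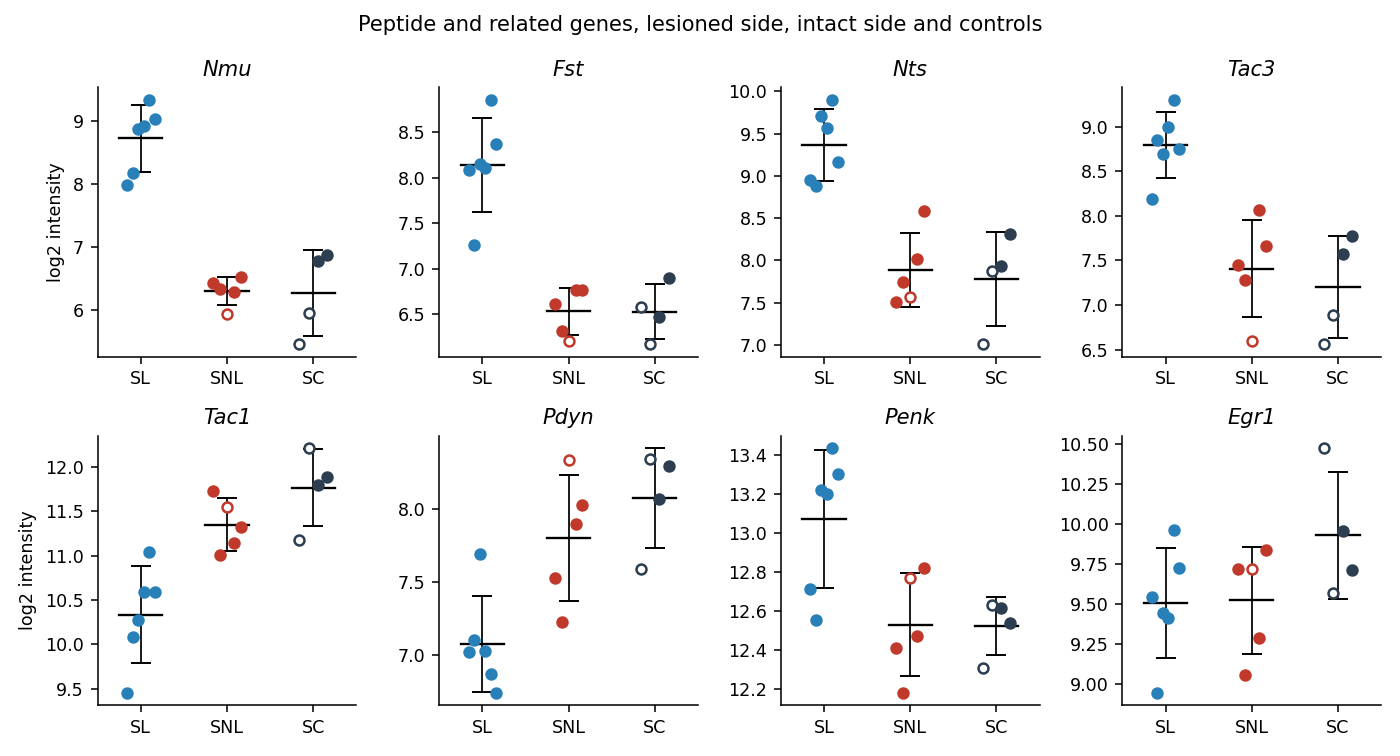
Log2 intensity (y axis) on each array for Nmu, Fst, Nts, Tac3, Tac1, Pdyn, Penk and Egr1 in SL, SNL and SC, with the mean and SD as bars and SNL 19, SC 6 and SC 8a as open circles. SL arrays lie above all SNL and SC arrays in Nmu, Fst, Nts and Tac3, while SNL and SC overlap in all 8 genes.

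Markers of the direct pathway had the lowest median of the 40 gene lists examined. Of 7 members tested, 0 were called, 1 lay above 0 and the median log2 fold change was -0.27, against 49.4% above 0 and a median of -0.002 over all probes. In whole tissue, fewer cells of a type and less RNA per cell cannot be told apart. Drd1, the D1 receptor, averaged 8.90 ± 0.43 in SNL and 9.20 ± 0.07 in SC, a log2 fold change of -0.30 (SE 0.25). SNL 3, at 9.55, lay above all SC arrays, SNL 19 lay among them and the other 3 SNL arrays lay below them. Chrm4, the muscarinic M4 receptor, gave -0.30 (SE 0.17). Without the 3 arrays the median of the list was -0.45, again with 1 of 7 above 0, and in the METH-treated rats MNL over MC gave -0.01 with 3 of 7 above 0.

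The 5 tested markers of the indirect pathway had a median log2 fold change of -0.11, with 1 above 0. Adora2a, an adenosine receptor, gave -0.13 (SE 0.18) and Drd2, the D2 receptor, -0.11 (SE 0.16). Of 21 genes of spiny neuron signalling, 0 were called and 7 lay above 0, with a median of -0.10 and of -0.25 without the 3 arrays. Rasd2, the striatal GTPase Rhes, had the smallest p of these at -0.47 (SE 0.22), with 12.02, 11.52, 12.68, 11.27 and 11.29 on the SNL arrays, against 12.40, 12.37, 12.09 and 12.03 on the SC arrays. SNL 19 lay above all SC arrays and the other SNL arrays lay below them.

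Of 16 stimulus-induced transcription factors tested, 0 were called and 3 lay above 0, with a median log2 fold change of -0.21. Without the 3 arrays the median was -0.15, with 6 of 16 above 0. Klf10 had 5.89, 5.70, 5.83, 5.49 and 5.37 on the SNL arrays, against 6.67, 5.62, 6.28 and 6.15 on the SC arrays, a log2 fold change of -0.53 (SE 0.19). Nfil3, which also belongs to the clock genes, gave -0.51 (SE 0.19), and -0.15 without the 3 arrays. Egr1, a zinc finger factor that follows synaptic activity, averaged 9.52 ± 0.34 in SNL and 9.93 ± 0.40 in SC, and Egr2 and Junb gave log2 fold changes of -0.44 (SE 0.29) and -0.44 (SE 0.22). Fos, detected on 1 of 5 SNL and 2 of 4 SC arrays, gave -0.21 (SE 0.21). No probe carried the symbols Fosb, Fosl1, Fosl2 or Jund in the annotation used here, and Egr3 and Nr4a1 were detected on none of the 9 arrays. The study measured these genes by qPCR, and marked none of its transcription factors as different between SNL and SC.

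Arc had 7.37, 6.67, 6.64, 6.52 and 7.90 on the SNL arrays, against 8.53, 7.25, 7.75 and 7.65 on the SC arrays. SC 6 was the highest of all 9 arrays, and SNL 3 and SNL 27 lay among the SC arrays. The log2 fold change was -0.78 (SE 0.30), and -0.59 without the 3 arrays. Rgs4, a regulator of G-protein signalling, gave -0.47 (SE 0.17), and -0.21 without them. Nptx2, a pentraxin that gathers glutamate receptors, lay on the other side at 0.60 (SE 0.20), being detected on 4 of 5 SNL and 1 of 4 SC arrays. Of 18 activity-regulated genes outside the transcription factors, 6 lay above 0 and the median was -0.08.

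In the METH-treated rats 15 of the same 16 transcription factors lay above 0 in MNL over MC, with a median log2 fold change of 0.15, and none of them differed between the 2 treatments at an adjusted p under 0.05. The smallest unadjusted p for that difference among them was that of Klf10, at 0.00826 (adjusted p = 0.999), with -0.53 for SNL over SC and 0.22 for MNL over MC.

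Of 15 glucocorticoid-induced genes, 2 lay above 0 and the median log2 fold change was -0.16, and -0.06 with 6 above 0 without the 3 arrays. Fkbp5, a co-chaperone that restrains the glucocorticoid receptor, had 10.38, 9.84, 10.62, 9.68 and 9.86 on the SNL arrays, against 10.74, 10.59, 10.26 and 10.39 on the SC arrays. SNL over SC gave a log2 fold change of -0.42 (SE 0.14), and -0.38 without the 3 arrays. Dusp1, a phosphatase of MAP kinases, gave -0.53 (SE 0.23), with SC 6 at 11.03 above the other 3 SC arrays at 9.83 to 9.97, and -0.23 without the 3 arrays. At an unadjusted p under 0.05, with all arrays, 4 of the 15 genes lay lower and 1 higher in SNL. Over all probes the shares were 1.99% lower and 2.09% higher. The gene of this list on the higher side was Ddit4, a stress-induced inhibitor of mTOR signalling. It had 8.03 to 8.80 in SNL and 7.08 to 8.45 in SC, a log2 fold change of 0.75 (SE 0.34) and overlapping groups. In MNL over MC the median of this list was -0.17, with 3 of 15 above 0.

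With all arrays, the marker lists of glia and vessels other than that of oligodendrocyte precursors gave medians near 0. The median log2 fold change was -0.003 for 15 astrocyte markers, -0.02 for 14 microglia markers and 0.03 for 17 oligodendrocyte and myelin genes, with 0 called in each. Without the 3 arrays these medians were -0.03, -0.09 and -0.03, with 5 of 15, 3 of 14 and 8 of 17 above 0. The 4 oligodendrocyte precursor markers had a median of 0.12, and of 0.19 without the 3 arrays, with 0 called. Gfap, the filament protein of reactive astrocytes, gave 0.28 (unadjusted p = 0.258), and Aif1, which encodes the microglial protein Iba1, -0.01. Oligodendrocyte genes lay on both sides of 0. Gatm, which makes the creatine precursor guanidinoacetate, had 7.86, 8.13, 8.65, 8.26 and 8.23 on the SNL arrays, against 7.79, 7.78, 7.58 and 7.41 on the SC arrays. All SNL arrays lay above all SC arrays, at a log2 fold change of 0.58 (SE 0.20). Bcas1 gave 0.43 (SE 0.17) and Mbp, myelin basic protein, 0.45 (SE 0.26), whereas Opalin, a myelin membrane protein, gave -0.79 (SE 0.36). All 9 endothelial and mural markers lay below 0, with a median of -0.07. Without the 3 arrays 1 of 9 lay above 0, with a median of -0.11.

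Genes of tissue next to the striatum were examined as signs of dissection. Of 13 choroid plexus and ependymal genes, 8 lay above 0, with a median of 0.10. Without the 3 arrays that stood apart 10 lay above 0, with a median of 0.16. Ttr, transthyretin, the main product of the choroid plexus, had 6.85, 12.57, 7.22, 8.50 and 7.96 on the SNL arrays, against 5.58, 7.67, 6.74 and 9.24 on the SC arrays. SNL 11 alone was at 12.57, and Aqp1 and Kcne2, which are also made there, were detected on that array of the 9 and on no other. The mean log2 intensity of the list was 5.99 to 7.56 in SNL and 5.90 to 6.52 in SC. Cortical glutamatergic markers had means of 7.35 to 8.15 in SNL and 7.32 to 8.41 in SC. Their median log2 fold change was 0.05 for 7 genes, with 4 above 0. Without the 3 arrays it was 0.19, with 5 above 0. Meningeal and fibroblast genes had a median of -0.18 over 10 genes, and of -0.08 without the 3 arrays. Among them Col1a2, a chain of type I collagen, gave -0.73 (SE 0.32), with SC 6 at 10.73 and the other 3 SC arrays at 9.11 to 9.23. The part of these tissues in the results was not tested.

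Among genes used by every cell, the ribosomal and oxidative phosphorylation lists depended on the 3 arrays. The median of 32 proteasome subunit genes was 0.04, and 0.01 without the 3 arrays. Of 60 ribosomal protein genes, 48 lay above 0, with a median log2 fold change of 0.13. Without the 3 arrays 16 of 60 lay above 0, with a median of -0.09. Of 55 genes of oxidative phosphorylation, 41 lay above 0 with a median of 0.11, and 23 with a median of -0.02 without the 3 arrays. Synaptic vesicle and SNARE genes, 14 of 16 above 0, had a median of 0.07 and of 0.33 without the 3 arrays, with Syp, synaptophysin, at 0.43 (SE 0.18) and Rab3a at 0.44 (SE 0.25). Ion channel genes had a median of -0.21 over 27 genes, and of -0.07 without them. Over all 40 lists no member was called, the medians ran from -0.27 to 0.36, and 24 lay within 0.1 of 0. The highest median was that of 6 blood cell genes, 4 of them above 0, with Hba-a1, a haemoglobin chain, at 0.64 (unadjusted p = 0.0932). It was 0.06 without the 3 arrays and -0.26 in MNL over MC, and the mean log2 intensity of the list was 7.70 to 8.54 in SNL and 7.53 to 8.47 in SC. Of the 16 medians beyond 0.1, 14 kept their sign without the 3 arrays and 2, those of the ribosomal and oxidative phosphorylation genes, did not.

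**Figure D5:**
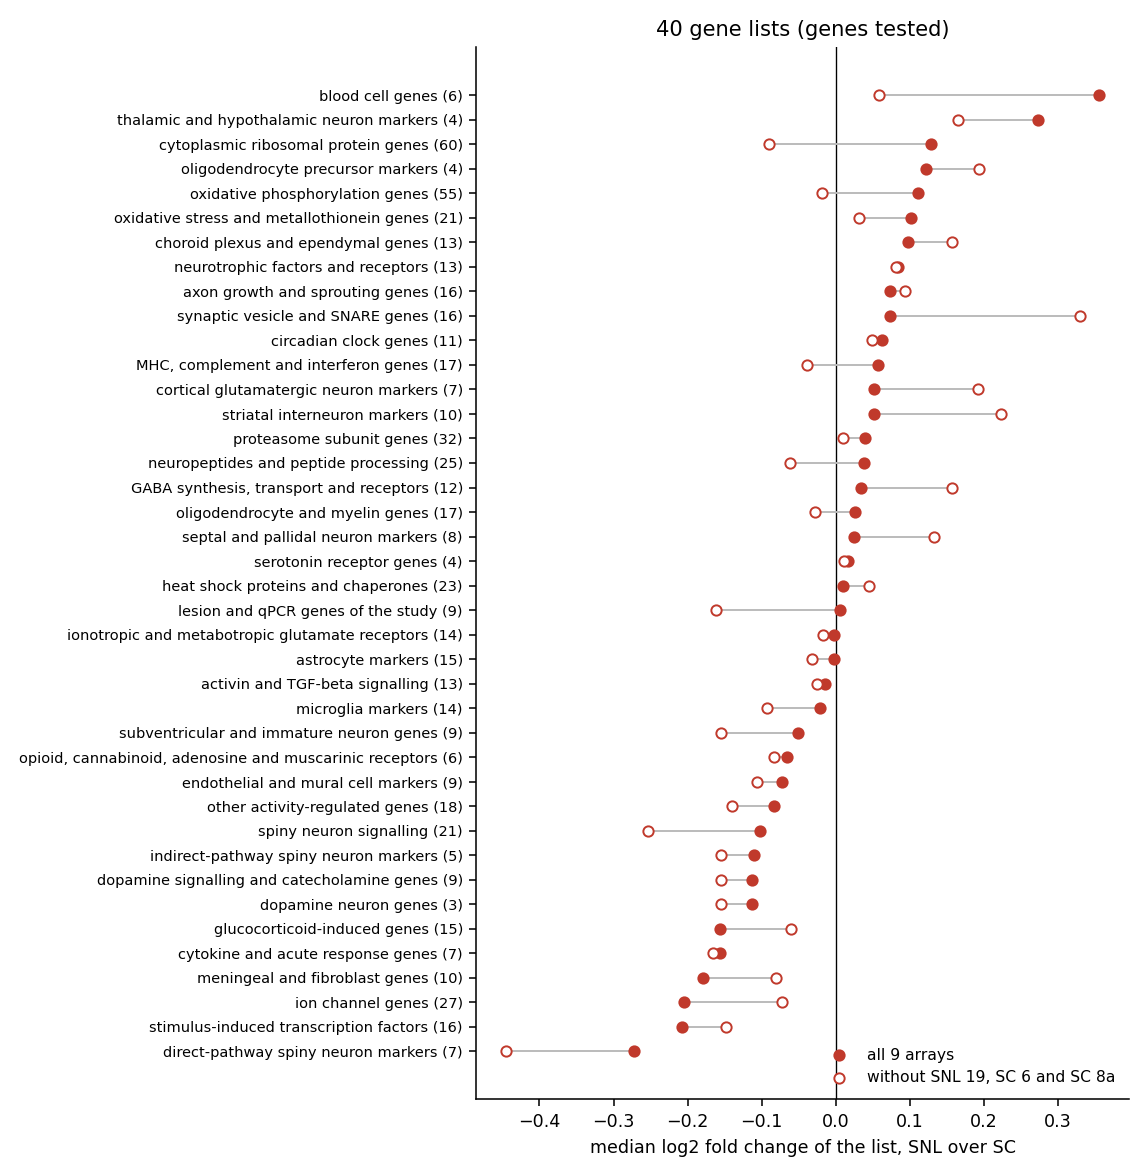
Median log2 fold change of SNL over SC (x axis) for each of 40 gene lists, with the number of genes tested in parentheses, over all 9 arrays (filled) and without SNL 19, SC 6 and SC 8a (open). Medians over all arrays run from -0.27 for the direct-pathway markers to 0.36 for the blood cell genes, and the ribosomal and oxidative phosphorylation lists change sign.

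The same question was put to the METH-treated rats, whose arrays are not among those of SNL and SC. MNL against MC gave 0 of 9732 probes at an adjusted p under 0.05 (0%), with 181 at an unadjusted p under 0.05 (1.86%) and 50.3% of probes above 0. Intact side against control averaged over both treatments gave 0 probes (0%), with 401 at an unadjusted p under 0.05 (4.12%) and a smallest adjusted p of 0.199, again that of Qdpr at a log2 fold change of 0.48 (SE 0.10). With array weights Qdpr alone was called there (adjusted p = 0.0216). The difference of the intact-side effect between METH and saline gave 0 probes (0%), with 164 at an unadjusted p under 0.05 (1.69%). Across the 9732 probes the fold changes of MNL over MC and of SNL over SC, which share no array, correlated at r = 0.24 and had the same sign in 59.62% of probes, and at r = 0.19 and 52.77% without the 3 arrays. Probes are not independent replicates, and this is a description of the 2 sets of arrays.

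Besides Qdpr, the genes of smallest p in that average were Slc38a5, a glutamine transporter, at 0.43 (SE 0.10), Spock2 at 2.95 (SE 0.72), Lox at -0.53 (SE 0.13), Zfp189 at -0.44 (SE 0.12), and Nt5e, the ectoenzyme that makes adenosine, at -0.43 (SE 0.11). Each had an adjusted p of 0.803. In MNL over MC alone the log2 fold change was 0.64 for Slc38a5, -0.32 for Lox, -0.36 for Zfp189 and -0.39 for Nt5e, beside 0.22, -0.74, -0.53 and -0.46 for SNL over SC.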

How the data were processed

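Striatal RNA was measured on 31 Illumina RatRef-12 arrays, 1 per striatum. The authors deposited non-normalized signal intensity with a detection p-value per probe, and a log2 table. On 30 arrays, 15265 of 22519 probes of that table matched the log2 signal within 0.02 once each probe was centred. Its ML 22 column instead correlated at r = 1 with 1 minus the detection p, and ML 22 was left out where the table was used. Chip and scan batches are not given in the sources used here. In the deposited signals the columns of ML 22 and SL 32 were shifted by 4 rows against the probes (r with the median array 0.213 and 0.215, and 0.985 and 0.986 once moved back). They were moved back and the first 4 probes left out, giving 22519 probes. Signals were corrected (normexp, offset 16), quantile-normalized and log2-transformed with neqc of limma 3.58.1 in R 4.3.3. One linear model over the 6 groups gave all comparisons, with Benjamini-Hochberg adjustment over 9732 probes detected at p under 0.01 on at least 4 arrays. The intervals are 95% intervals of that fit. Of all probes, 13790 had 1 gene symbol in the platform annotation and 8729 had none. Named genes were those of smallest p (10 in each direction), those past 1.7-fold at an unadjusted p under 0.025, the study's lesion and qPCR genes, and members of 40 gene lists. The comparison, rules and lists were chosen with earlier results of these data known. Leaving out the 3 arrays that stood apart, and a random block of neighbouring striatum numbers, were chosen after seeing the data. The fit was tested on simulated data. Alternatives covered scaling, background, probe filter, array weights, the deposited log2 table, the methods' t-test and leaving out each array.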

Additional observations from a re-analysis of the deposited data

Results flagged for a closer look

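Of 140 sets of values of 1 gene in 1 group, 9 held an array set far from the rest of its group by Dixon's criterion, which chance meets in about 1 of 20 groups. Mnt was 7.18 on SNL 23, against 6.94 to 6.99 on the other SNL arrays. Ttr was 12.6 on SNL 11, against 6.85 to 8.50 on the others, and Aqp1 was 6.56 on SNL 11, against 4.50 to 4.60 on the others. Dusp1 was 10.6 on SNL 27, against 9.26 to 9.58 on the other SNL arrays, and 11.0 on SC 6, against 9.83 to 9.97 on the other SC arrays. Ppp1r1b was 12.7 on SC 6, against 13.1 to 13.2 on the others, and Col1a2 was 10.7 on SC 6, against 9.11 to 9.23 on the others. Ucp2 was 7.77 on SC 8a, against 7.42 on each of the other 3. B4galt4 was 7.21 on SC 15, against 8.11 to 8.24 on the others.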

How the results depend on the processing

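The count of probes at an adjusted p under 0.05 between SNL and SC was 0 in 19 of 21 alternatives, with 211 to 1126 probes at an unadjusted p under 0.05. It was 1 with all 22519 probes tested, a probe without a symbol detected on 1 of 31 arrays, and 0 to 1 on leaving out each array, the 1 being Qdpr without SNL 3. The count at 1.7-fold and an unadjusted p under 0.025 was 11. It was 7 with median scaling, 7 with all probes, 7 with probes detected on every array, and 21 with array weights. It was 39 with the deposited log2 table and 34 without SNL 19, SC 6 and SC 8a. The methods' t-test gave 148 over all probes and 16 over the probes detected on at least 4 arrays. Leaving out each array gave 9 to 49. The cause was not tested. MNL against MC gave 0 in all 20 alternatives, and the difference between METH and saline 0 in all 29. The average over both treatments gave 0 in 27 of 29, with 1 for array weights and 0 to 1 on leaving out each array, the 1 being without SNL 3.

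Of 70 genes under up to 19 alternatives, 61 kept the sign of their log2 fold change, including all 40 with an unadjusted p under 0.05. Those 40 had a small p on the same arrays that the alternatives refit, so their kept sign is no independent support. The other 9 were Nmu, Fst, Nts, Tac3, Penk, Nr4a3, Aif1, Aqp1 and Acvr1. No paired analysis was possible because the groups compared share no striatum numbers. Whether intact and lesioned arrays with neighbouring numbers share a rat is not stated in the labels, and the 6-group fit takes them as independent. With 10 such pairs as a random block, chosen after seeing the data, SNL against SC gave 0 probes, with 405 at an unadjusted p under 0.05. With only the SNL and SC arrays in the fit it gave 0, with 220. With 5 and 4 arrays, 3 of which stood apart, small differences were not detectable. The printed intervals are not limits of detection, since Qdpr, whose interval excluded 0, did not pass the adjustment.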

Other observations

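Clta, which encodes a clathrin light chain, averaged 10.37 ± 0.31 in SNL and 9.87 ± 0.25 in SC (log2 intensity, SD), or 1.42-fold (95% interval 1.14 to 1.77). The other light chain gene, Cltb, averaged 9.39 ± 0.40 in SNL and 9.11 ± 0.15 in SC, a log2 fold change of 0.28 (SE 0.15). A clathrin light chain was the qPCR reference of the study, and which of the 2 genes was used is not settled here.

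Spock2 was 1 of 19 probes that took 2 separate levels across the 31 arrays. In 8 of 10 pairs of intact and lesioned arrays with neighbouring striatum numbers, all 19 probes were on the same level, and 16 to 19 were over all 10 pairs. Between 2 SC arrays 6 to 14 of the 19 probes were on the same level (6 pairs), and between 2 control arrays 6 to 16 (28 pairs). Among the SNL and SC arrays, pairs ran from 5 (SNL 27 and SC 6) to 18 (SNL 3 and SNL 23). The range of the neighbouring pairs thus overlapped that of other pairs. Ndufa11, Rps15 and 1 probe without a symbol were on the lower level on 3 arrays only, all of them SNL or SC and 1 of them SNL 19. These were the probes at which SNL 19 differed from SL 20, the neighbouring pair with 16 probes on the same level. Whether neighbours are more alike than other pairs was not tested.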
